A study of Homo sapiens with 3 samples.

Results

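The MHC class I presentation genes HLA-B, HLA-C, HLA-E, HLA-F, B2M, TAP1, TAP2, TAPBP and NLRC5 were described in 3 RNA-seq libraries of 1 condition. They were chosen by gene name, on the primary chromosomes and not on alternate haplotypes or unplaced contigs, and they are 9 of the 39266 gene names there. Each of the 9 had 1 such row in every library. The libraries are labelled HepG2, replicates 1 to 3, genotype WT, and HepG2 is an established human liver cancer cell line. No agent, transgene or second genotype is given for any of them, so no comparison between conditions was possible. Nothing in the labels says that the replicates came from separate cultures, and the spread between them may be technical. The 9 genes do not cover every class I heavy chain gene in the tables.

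MHC class I molecules show peptides from inside a cell to CD8+ T cells and natural killer cells. Proteasomes cut proteins into peptides, the TAP transporter carries these into the endoplasmic reticulum, and a loading complex fits them to a heavy chain paired with beta-2-microglobulin. Hepatocytes are known for low class I levels that interferon raises, and tumours are known to lose parts of this pathway.

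In the 3 libraries labelled HepG2, all 9 genes were expressed, with means from 10.4 TPM for HLA-F to 776 TPM for B2M. TPM is scaled for gene length and sums to 1 total in all libraries. It permits comparison between genes but carries no depth. At least 10 TPM was reached in every library by 8 of the 9, against 20.7% of the 39320 gene rows on the same references. The exception was HLA-F. At least 1 TPM in every library was reached by 9 of 9, against 33.8% of all rows. The 9 genes, and the lists of related genes below, were chosen with earlier results of these data known. Such shares are thus descriptions and not a test. In bulk RNA, the share of cells that express a gene and the RNA per cell cannot be told apart.

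Facts of the libraries that touch these values are few. The tables give no counts, the depth is unknown and counting error is not given. Relative depth, taken from the top ratio of coverage to FPKM, exceeded that of replicate 3 by a factor of 1.16 in replicate 1 and 1.12 in replicate 2. Of 10 genes of secreted hepatocyte proteins, 10 stayed below 1 TPM and 7 were listed at 0 in all libraries, ALB and APOB among them, with a summed level of 0.0571 to 0.244 TPM. The keratin genes KRT8 and KRT18 were at 2609.6 ± 28.6 and 2017 ± 102 TPM (SD, n = 3), and the mesenchymal gene VIM was at 694 ± 48.1 TPM. The defining secreted markers of the labelled cell type were thus at or near 0, so the identity of the cells is in doubt and was not tested. The values below hold for libraries with this label. Of 8 leukocyte genes, 8 were below 1 TPM in every library, with PTPRC, CD3E, MS4A1 and LYZ listed at 0 and a summed level of 1.41 to 1.83 TPM. Of 3 endothelial genes, PECAM1 and CDH5 were below 1 TPM and VWF was at 1.36 ± 0.125 TPM (SD, n = 3).

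The promoters of class I genes carry short sequence modules that proteins named among these genes and their regulators are known to use. NLRC5 acts with the RFX proteins and NF-Y at a module with a TGACG element and a CCAAT box, and interferon regulatory factors bind repeats of GAAA, 2 further bases and GAAA. The RefSeq promoter table of GRCh38.p14 held 7 of the 9 genes, and HLA-E and NLRC5 were not in it. Each promoter runs from 250 bases before the start of the gene to 50 bases after it, and base 0 is the start. All 3 motifs were searched on both strands, and matches of the GAAA repeat that overlap each other were kept.

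The TGACG element was found in 4 of 7 promoters, those of HLA-B, HLA-C, B2M and TAP2, against 24.6% of all 35116 promoters. It is shown for the heavy chains HLA-B and HLA-C and their light chain B2M, with the motif in capitals, at chr6:31357269-31357298 and chr6:31272181-31272210 on the minus strand and chr15:44711429-44711458 on the plus strand.
HLA-B: tccaggatactcgTGACGcgtccccacttc
HLA-C: tcctgaatactcaTGACGcgtccccaattc
B2M: gcttggagacaggTGACGgtccctgcgggc

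The CCAAT box was found in 5 of 7 promoters, those of HLA-B, HLA-C, HLA-F, B2M and TAP1, against 34.6% of all promoters. In HLA-B, HLA-C, HLA-F and B2M, an other-strand match lies within 100 bases of the start, so that the printed strand reads ATTGG. The one farthest upstream in that stretch is shown for these 4 genes, because in the 3 that hold a TGACG element it is the first other-strand match after it. It begins at position -81 in HLA-B, -80 in HLA-C, -82 in HLA-F and -49 in B2M. Between the end of the TGACG element and this match lie 20 bases in HLA-B and in HLA-C and 21 in B2M, and HLA-F holds no TGACG. The windows are chr6:31357244-31357273 and chr6:31272156-31272185 on the minus strand, and chr6:29723339-29723368 and chr15:44711455-44711484 on the plus strand.
HLA-B: acttcccactcccATTGGgtATTGGatatc
HLA-C: aattcccactcccATTGGgtgtcgggttct
HLA-F: atttctcactcccATTGGgcgtcgcgtttc
B2M: gggccttgtcctgATTGGctgggcacgcgt

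The heavy chain promoters also held CCAAT on the printed strand, at position -56 in HLA-B and HLA-C, at -57 in HLA-F and at -95 in HLA-C. Further other-strand matches lay at -74 in HLA-B, in capitals in its window, and at -192 in HLA-C. The match of TAP1 lay on the other strand at -249.

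The interferon-type repeat was found in 5 of 7 promoters, against 3.57% of all promoters. It is shown for the light chain, for both chains of the transporter and for the bridging chaperone TAPBP, at chr15:44711369-44711398 on the plus strand and chr6:32853813-32853842, chr6:32838778-32838807 and chr6:33314079-33314108 on the minus strand. In TAP1 it lies on the other strand, so that the printed strand reads TTTC. The fifth promoter was that of HLA-F. TAP1 has 2 starts in the table, and the one nearest to the 5′ end of its deposited row was used. The windows of TAP1, TAP2 and TAPBP lie inside their deposited rows, which begin upstream of the RefSeq starts used. These matches are descriptions of letters and not of binding.
B2M: ctaaGAAAAGGAAACTGAAAacgggaaagt
TAP1: ccgcTTTCGATTTCGCTTTCccctaaatgg
TAP2: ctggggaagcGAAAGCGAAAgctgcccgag
TAPBP: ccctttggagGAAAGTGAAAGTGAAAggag

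Of the heavy chain genes, HLA-B and HLA-C encode classical class I molecules, which present varied peptides to CD8+ T cells. On chromosome 6, HLA-B spans 31353875 to 31357179 on the minus strand, and its canonical transcript in GENCODE v44 has 8 exons and 1536 nt. It had 162, 162 and 169 TPM in replicates 1, 2 and 3, a mean of 165 ± 4.05 TPM (SD, n = 3). HLA-C lies 81738 bases to its left, on the same strand, from 31268749 to 31272136, also with 8 exons. It had 165 TPM in each of the 3 libraries, a mean of 164.9 ± 0.213 TPM (SD, n = 3). HLA-B was below HLA-C in replicates 1 and 2 and above it in replicate 3, so the ranges of both genes overlapped.

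HLA-E, a nonclassical heavy chain that natural killer cells read through CD94 and NKG2A, lies on the plus strand of chromosome 6 from 30489508 to 30494194. It had 48.1, 47.4 and 50.5 TPM in replicates 1, 2 and 3, a mean of 48.7 ± 1.60 TPM (SD, n = 3). All 3 values lie below every value of HLA-B and HLA-C. HLA-F, a nonclassical heavy chain that is mostly kept inside the cell, lies on the plus strand from 29723340 to 29740355. It had 10.6, 9.89 and 10.8 TPM, a mean of 10.4 ± 0.475 TPM (SD, n = 3), and only replicate 2 was below 10 TPM.

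Summed over HLA-B, HLA-C, HLA-E and HLA-F, heavy chain RNA was 386, 385 and 395 TPM in replicates 1, 2 and 3. HLA-C made up 42.4% ± 0.672 and HLA-B 42.4% ± 0.426 of this sum (SD, n = 3). HLA-E made up 12.5% ± 0.228 and HLA-F 2.68% ± 0.0994 of it (SD, n = 3). The sum holds these 4 genes only and is not the total of heavy chain RNA in the cells.

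B2M encodes beta-2-microglobulin, the light chain that pairs with class I heavy chains. Its row lies on the plus strand of chromosome 15 from 44711492 to 44718877, and its canonical transcript has 4 exons and 943 nt. Its level was 775, 770.2 and 782 TPM in replicates 1, 2 and 3, a mean of 776 ± 6.08 TPM (SD, n = 3). B2M was the highest of the 9 genes in every library. By mean TPM it ranked 150th of the 13753 genes that averaged 1 TPM or more, above 98.9% of them.

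TAP1 and TAP2 form the heterodimer that pumps peptides into the endoplasmic reticulum, so their levels were set against each other. On chromosome 6, TAP2 spans 32821833 to 32838823 and TAP1 spans 32845209 to 32853971, both on the minus strand. PSMB8, a subunit of the immunoproteasome, lies between them, and the row of the subunit gene PSMB9 begins 220 bases beyond that of TAP1 on the other strand. TAP1 had 29.5, 27.5 and 28.3 TPM in replicates 1, 2 and 3, a mean of 28.4 ± 0.991 TPM (SD, n = 3). TAP2 had 29.1, 27.6 and 27.9 TPM, a mean of 28.2 ± 0.777 TPM (SD, n = 3).

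The TPM ranges of both TAP genes thus overlapped, and by TPM both were highest in replicate 1 and lowest in replicate 2. The log2 ratio of TAP1 to TAP2, on the log2(TPM + 1) scale, was 0.02, -0.01 and 0.02 in replicates 1, 2 and 3. Its mean was 0.01 ± 0.01 (SD, n = 3), and the exact sign-flip permutation test, two-sided, gave p = 0.5, or 0.562 after adjustment over 9 comparisons. By coverage, the mean depth of reads over a gene, TAP1 was at 173, 158 and 146 and TAP2 at 154, 144 and 130. TAP1 was the higher one in 3 of 3 libraries by that measure, with a mean log2 ratio of 0.16.

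TAPBP encodes tapasin, which bridges the transporter and the heavy chain in the loading complex. Its row spans 33299694 to 33314387 on the minus strand of chromosome 6, with 8 exons in its canonical transcript. Its level was 38.2, 37.9 and 32.4 TPM in replicates 1, 2 and 3, a mean of 36.2 ± 3.31 TPM (SD, n = 3). Replicate 3 was the low library, and TAPBP had the largest coefficient of variation of the 9 genes, at 9.15%. Its lowest value was still above the highest values of TAP1 and TAP2.

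NLRC5, the transactivator of class I genes, lies on the plus strand of chromosome 16 from 56989485 to 57083524 and has 49 exons in its canonical transcript. It had 10.9, 10.7 and 10.8 TPM in replicates 1, 2 and 3, a mean of 10.8 ± 0.0818 TPM (SD, n = 3). NLRC5 and HLA-F were the only 2 of the 9 genes below the median of expressed genes, which was 15.4 TPM. NLRC5 exceeded 40.8% and HLA-F 39.9% of those 13753 genes, whereas HLA-B and HLA-C each exceeded 93.6% of them. Of the others, HLA-E exceeded 77.6%, TAPBP 71.5%, TAP1 65.9% and TAP2 65.7%.

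**Figure D1:**
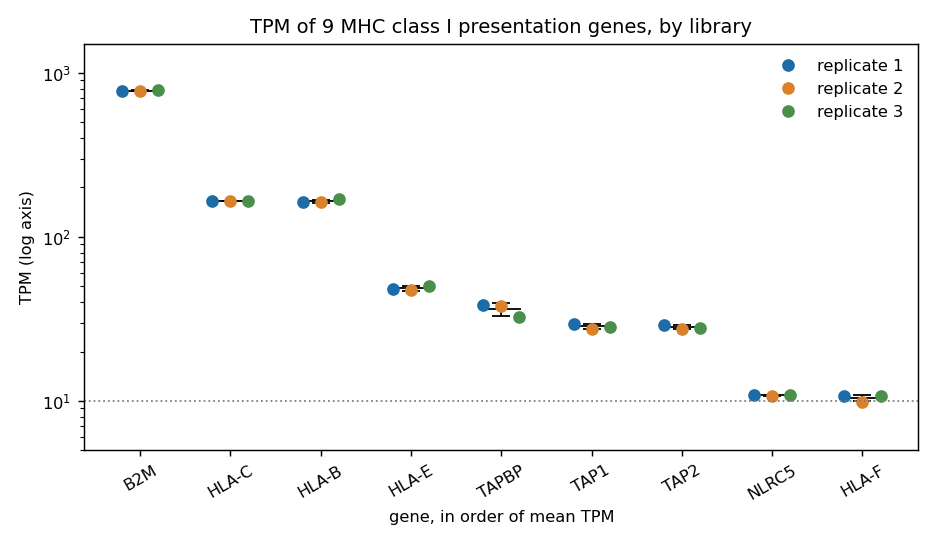
TPM (log axis) of each of the 9 genes in replicates 1, 2 and 3 (coloured points), with the mean as a black bar, error bars of 1 SD and a dotted line at 10 TPM. B2M is at 776 TPM on average, HLA-C and HLA-B lie together near 165 TPM, TAP1 and TAP2 near 28 TPM, and NLRC5 and HLA-F lie just above the line, with replicate 2 of HLA-F below it.

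The order of the 9 genes by mean TPM was B2M, HLA-C, HLA-B, HLA-E, TAPBP, TAP1, TAP2, NLRC5 and HLA-F, and the same order was obtained by mean coverage. Each gene was compared with the next one by the log2 ratio within each library on the log2(TPM + 1) scale. The order came from these same values, so it set the direction of each mean ratio, and the tests lend that direction no support. B2M was 2.23 ± 0.01 above HLA-C, and HLA-B was 1.74 ± 0.02 above HLA-E (SD, n = 3). HLA-E was 0.42 ± 0.18 above TAPBP, TAPBP 0.33 ± 0.13 above TAP1 and TAP2 1.31 ± 0.03 above NLRC5 (SD, n = 3). In these 5 pairs the TPM ranges of both genes did not overlap, and the direction was the same in 3 of 3 libraries. By the exact sign-flip permutation test, two-sided, each had p = 0.25, the smallest p that 3 libraries allow, and 0.321 after Benjamini-Hochberg adjustment over 9 comparisons.

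The other 3 neighbouring pairs had overlapping TPM ranges. HLA-C against HLA-B had a log2 ratio of 0.0022 ± 0.037 (SD, n = 3), with p = 1 by the exact sign-flip permutation test. TAP1 against TAP2 is given above. NLRC5 was 0.05 ± 0.05 above HLA-F in 3 of 3 libraries (SD, n = 3), with p = 0.25 and an adjusted p of 0.321 by the exact permutation test. None of the 9 comparisons could pass a threshold of 0.05 in this design.

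The 4 summed heavy chains were set against B2M in the same way. The log2 ratio was -1.004, -0.999 and -0.983 in replicates 1, 2 and 3, so that the sum was 0.501 times the TPM of B2M on average. The exact sign-flip permutation test gave p = 0.25 and an adjusted p of 0.321, with the same direction in 3 of 3 libraries. By coverage, the mean log2 ratio turned from -0.995 to 0.034.

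Replicate values of the 9 genes lay close together. The range of log2(TPM + 1) over the 3 libraries went from 0.0036 for HLA-C to 0.23 for TAPBP, with a median of 0.07 over the 9 genes and of 0.13 over the 8419 genes that averaged 10 TPM or more. No member had a range above 1, against 0.273% of those genes. The median coefficient of variation was 2.75% over the 9 genes and 4.88% over all 8419. By TPM, the low library was replicate 2 for 6 of the 9 genes, replicate 3 for HLA-C and TAPBP and replicate 1 for HLA-B. Another scaling divides each library by the median ratio of its genes to their geometric mean over the libraries. Its factors were 1.034, 0.992 and 0.976 in replicates 1, 2 and 3. Differences of that size, and with them the spread and the low library above, depend on the scaling chosen. With that scaling too, no member had a range above 1.

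**Figure D2:**
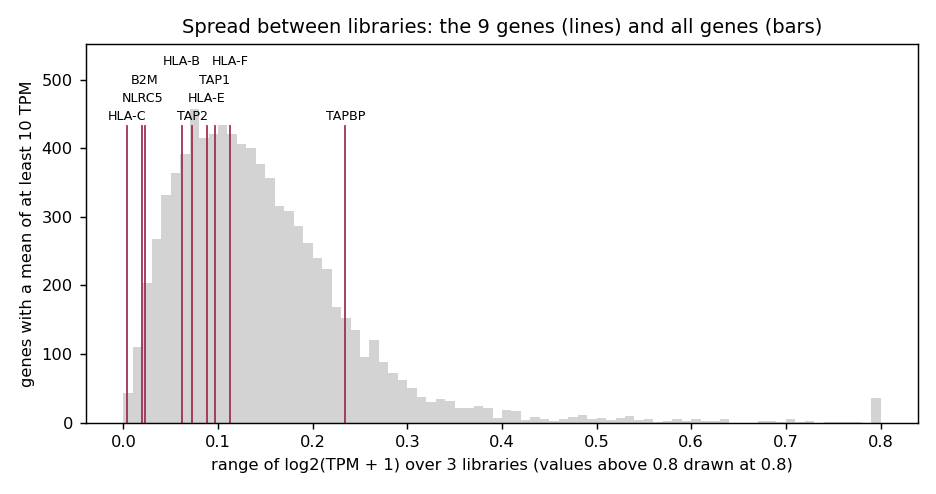
Range of log2(TPM + 1) over the 3 libraries for the 8419 genes that averaged 10 TPM or more (grey bars, number of genes) and for the 9 genes (red lines). TAPBP lies farthest to the right at 0.23, and HLA-F, the next one, lies at 0.11.

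The deposited tables give coverage beside FPKM, and their ratio is not the same for all genes of a library. Relative to the highest ratio in a library, HLA-B and HLA-C were at 1.00 in all 3 libraries, TAP1 at 0.937 to 0.938 and HLA-E at 0.896 to 0.904. TAP2 was at 0.844 to 0.852 and TAPBP at 0.752 to 0.829. B2M was lower, at 0.472 in all 3 libraries, followed by NLRC5 at 0.266 to 0.272 and HLA-F at 0.171 to 0.1803. The coverage of HLA-F was 11.4, 10.95 and 10.6 in replicates 1, 2 and 3, and that of NLRC5 was 18.2, 17.7 and 16.1. NLRC5 was thus above HLA-F in every library by coverage, as it was by TPM. Their coverage ranges did not overlap, whereas their TPM ranges did.

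The coverage of the highest genes showed the same shift. B2M had a coverage of 2296, 2233 and 2032, and HLA-C had 1034, 1013.7 and 905 in replicates 1, 2 and 3. HLA-B had 1017, 997 and 931. Coverage follows library size and was highest in replicate 1 and lowest in replicate 3 for all 9 genes, as was the relative depth. RefSeq lists 1 curated transcript for B2M, HLA-B and HLA-E, 3 for HLA-F and 35 for NLRC5. The part of transcript number in the low ratios was not tested.

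**Figure D3:**
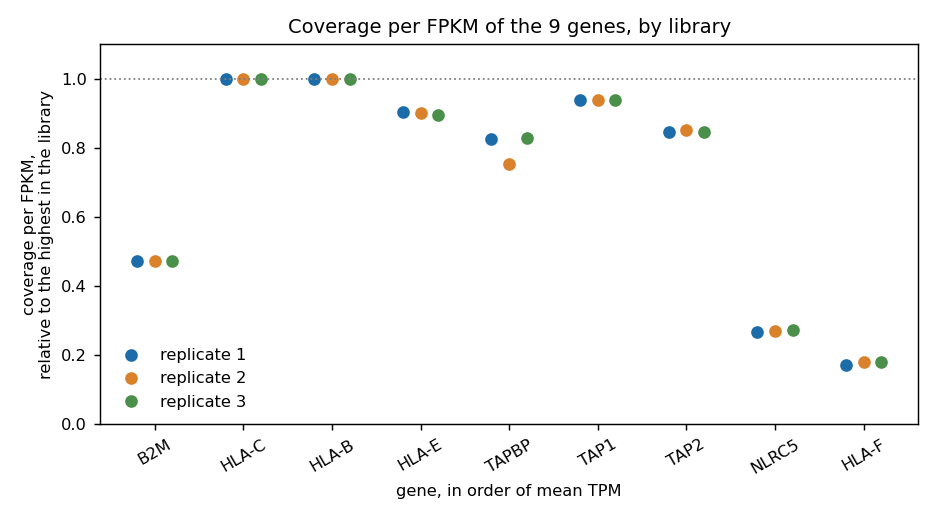
Coverage per FPKM of each gene in replicates 1, 2 and 3, relative to the highest such ratio in the library (dotted line at 1). HLA-C and HLA-B lie on the line, B2M lies at 0.472, and NLRC5 and HLA-F lie below 0.28 in every library.

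Class I genes resemble each other, and the reference also holds alternate haplotypes of the MHC. The tables list 42 rows of 8 of the 9 genes on alternate haplotypes, and NLRC5 has none. These were 5 rows for HLA-B, 6 each for HLA-C, HLA-E and HLA-F, 1 for B2M, 7 each for TAP1 and TAP2 and 4 for TAPBP. All 42 had 0 TPM in every library, as had all 3929 alternate-haplotype rows in the tables, so adding them moved none of the values above. All 3929 zeros were written as 0.0, where values above 0 carry more decimals, and whether reads were offered to these references was not tested.

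In GENCODE v44, 0 of the 1387 stretches of 150 bases in the canonical HLA-B transcript occurred in a transcript of another gene, and 0 of the 1393 in that of HLA-C. At 75 bases, 1.98% of the HLA-C stretches and 2.30% of the HLA-E stretches occurred in another gene. The reads were 150 bp long in pairs. TAP2 was the exception at 150 bases, with 34.1% of its stretches also in transcripts of 1 other gene. The part of this sharing in the TPM of TAP2, and so in the ratio of TAP1 to TAP2, was not tested. These counts are of exact matches between reference alleles, so they do not show how reads with mismatches were placed. The alleles of the cells were not analysed here.

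Gene rows overlapped 3 of the 9. The antisense gene HLA-F-AS1 overlaps HLA-F over 13755 bp and had 1.44 ± 0.323 TPM (SD, n = 3), and PSMB8-AS1 overlaps TAP1 over 1292 bp with 0.550 ± 0.477 TPM. MIR6891 lies within HLA-B on the same strand and had 1.66 ± 0.790 TPM (SD, n = 3). The strand setting is not given in the sources used here, so reads of HLA-F and of its antisense partner cannot be told apart.

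Around the 9 genes, 34 related genes in 4 lists were counted, and 16 of them had at least 10 TPM in every library, against 20.7% of all rows. Of 6 genes listed under the immunoproteasome and PA28, 5 did so, among them PSME3 at 136 ± 2.97 TPM (SD, n = 3). The immunoproteasome and the PA28 activator of PSME1 and PSME2 favour peptides that suit class I. PSME2 and PSME1, which form PA28, were at 150 ± 11.2 and 99.3 ± 2.52 TPM (SD, n = 3). The catalytic immunoproteasome subunits PSMB8 and PSMB10 were at 63.1 ± 2.77 and 43.3 ± 0.422 TPM. PSMB9 had 11.5, 9.93 and 13.3 TPM in replicates 1, 2 and 3, and replicate 2 kept it below the limit.

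By TPM, the constitutive counterparts of these subunits were higher. PSMB5, PSMB6 and PSMB7 were at 224 ± 6.02, 318 ± 12.7 and 643 ± 3.40 TPM (SD, n = 3). By coverage, PSMB5 was below PSMB8 in every library, at 204, 204 and 183 against 295, 309 and 275 in replicates 1, 2 and 3. PSMB6 and PSMB7 were above PSMB9 and PSMB10 by coverage too. PSMB8 made up 21.98% ± 0.376 of the summed TPM of PSMB8 and PSMB5. PSMB9 made up 3.53% ± 0.544 of that of PSMB9 and PSMB6, and PSMB10 made up 6.30% ± 0.0405 of that of PSMB10 and PSMB7 (SD, n = 3).

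Of 7 genes for peptide loading and trimming, 4 had at least 10 TPM in every library. The lectin chaperones CALR and CANX, which hold the heavy chain, were at 788 ± 9.79 and 489 ± 19.9 TPM, and the oxidoreductase PDIA3, which is bound to tapasin, was at 258 ± 11.3 TPM (SD, n = 3). The general chaperone HSPA5 was at 606 ± 22.2 TPM. The trimming peptidase ERAP1 was at 9.87 ± 0.709 TPM, and its relative ERAP2 was at 1.39 ± 0.0343 TPM (SD, n = 3). TAPBPL, a tapasin relative that edits peptides, was at 1.34 ± 0.261 TPM.

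Of 9 regulators, 5 had at least 10 TPM in every library. RFXANK, RFX5 and RFXAP, the 3 proteins of the RFX complex, were at 62.8 ± 3.67, 45.7 ± 1.34 and 4.05 ± 0.673 TPM (SD, n = 3). IRF1, a transcription factor that interferon gamma induces, was at 13.4 ± 0.323 TPM, and IRF2 was at 5.48 ± 0.555 TPM (SD, n = 3). The NF-Y subunits NFYC, NFYB and NFYA were at 52.3 ± 3.08, 21.0 ± 1.19 and 6.24 ± 0.0948 TPM. By mean coverage NFYC was the lowest of them, at 13.6 against 97.1 for NFYB and 36.8 for NFYA. Of the genes through which interferon gamma acts, IFNGR1, IFNGR2 and JAK1 had at least 10 TPM in every library, and JAK2 was at 5.57 ± 0.446 TPM (SD, n = 3).

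The fourth list held 12 other class I and ligand genes. The limit of 10 TPM was met in all libraries by 2 of the 12, the ligand genes MICA and MICB, and 4 were below 1 TPM in every library.

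MHC class II genes, which serve professional antigen presenting cells, were low. Of 13 listed, 12 were below 1 TPM in every library and 8 were listed at 0, HLA-DRA and HLA-DRB1 among them. Their summed level was 3.20 to 4.17 TPM, of which HLA-DMA had 2.08 ± 0.510 TPM (SD, n = 3). CIITA, the class II relative of NLRC5, was at 0.511 ± 0.0020 TPM, and the invariant chain gene CD74 was at 0.257 ± 0.1003 TPM.

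**Figure D4:**
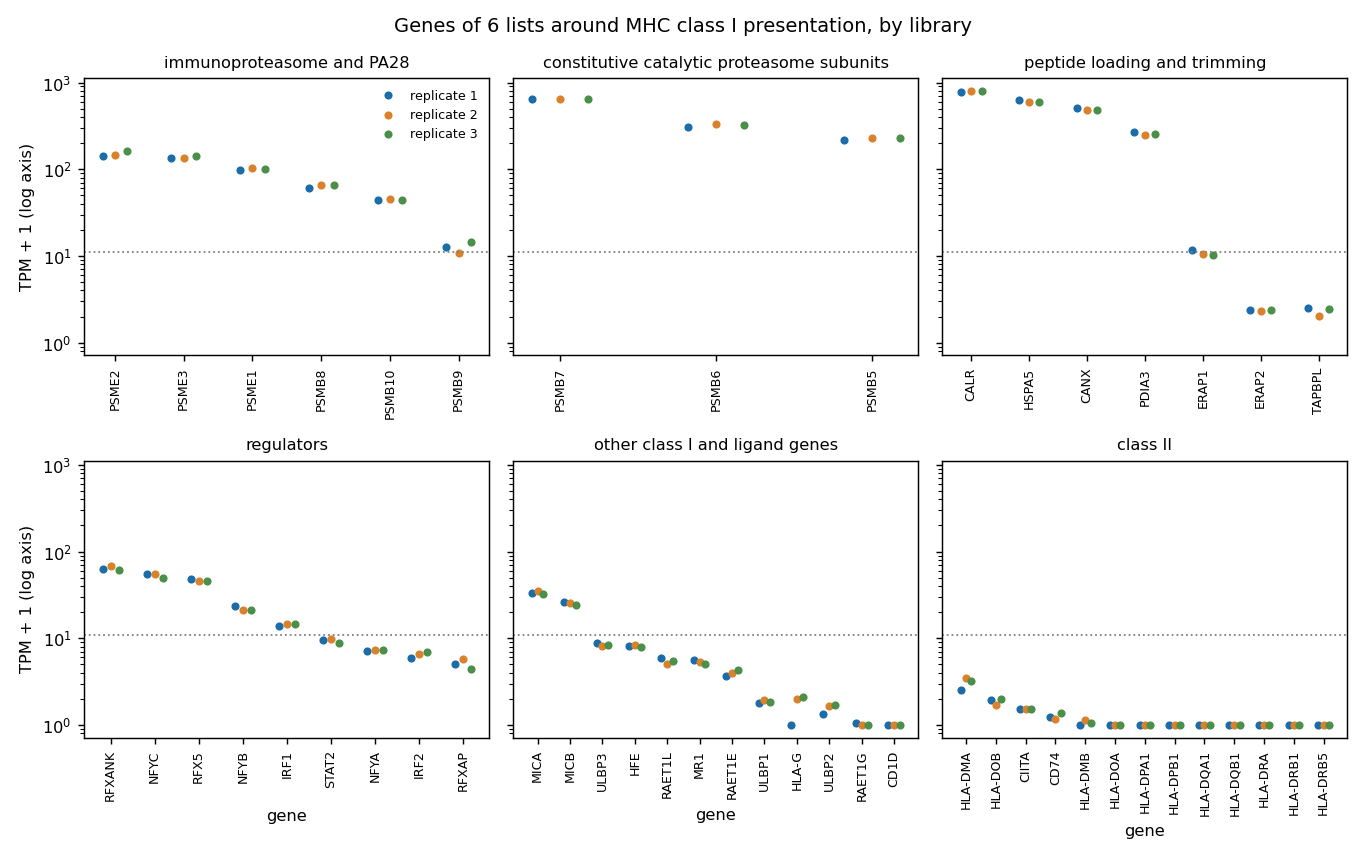
TPM plus 1 (log axis) in replicates 1, 2 and 3 (coloured points) for genes of 6 lists, with a dotted line at 10 TPM. CALR at 788 TPM and PSMB7 at 643 TPM lead their panels, ERAP2 and TAPBPL lie near the bottom, and all 13 class II genes lie below the line.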

How the data were processed

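RNA-seq of 3 libraries labelled HepG2 was analysed. Paired-end reads of 150 bp were cleaned by the authors (FastQC 0.11.8, Trim Galore 0.6.2) and aligned to GRCh38 (STAR 2.6.1a). The submitters' processing notes also name StringTie. The annotation and strand setting are not given in the sources used here. The deposited coverage is a signal of mean read depth per gene without scaling for library size. The deposited FPKM is scaled for gene length and library size, and the deposited TPM is proportional to it within a library. The number of reads is unknown, so only the spread between libraries is given, as the SD over 3 libraries. That spread may be technical.

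Rows of the tables were matched by gene name, reference, strand and coordinates, which kept 43389 rows, of which 39320 lie on primary chromosomes (reference names without the mark _). Ratios were computed within each library with a pseudocount of 1 and tested by an exact sign-flip permutation test (two-sided) with Benjamini-Hochberg adjustment over 9 comparisons. The genes named were the 9 members, fixed lists of related genes and rows that overlap a member. Members and lists were chosen with earlier results of these data known. Genes alike in pattern were not sought, since 1 condition gives no pattern. The range calculation was tested on simulated data. Promoters were taken from RefSeq (GRCh38.p14) and transcripts from GENCODE v44. HLA-K and HLA-P had no row, and 1 listed regulator is not reported here. The motifs and the stretches shared between transcripts were chosen after the values were seen. Python 3.11.15, numpy 2.4.6, pandas 2.3.3 and matplotlib 3.10.9 were used.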

Additional observations from a re-analysis of the deposited data

How the results depend on the processing

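The values rest on 3 libraries of 1 condition with unknown depth, so a gene listed at 0 may be below what the reads could show. No paired analysis was possible because only 1 group was sequenced. With a limit of 30 TPM, 5 of the 9 genes remained, and with a limit of 1 TPM the related genes numbered 29 in place of 16. The log2 ratio of HLA-C to HLA-B ranged from -0.0085 to 0.0234 when each replicate was left out and was below 0 without replicate 1 and without replicate 2. The log2 ratio of the summed heavy chains to B2M turned from -0.995 to 0.034 by coverage. By coverage, the log2 ratio moved from 2.23 to 1.151 for B2M against HLA-C and from 0.33 to 0.12 for TAPBP against TAP1. It moved from 0.01 to 0.16 for TAP1 against TAP2, from 1.31 to 2.97 for TAP2 against NLRC5 and from 0.05 to 0.61 for NLRC5 against HLA-F. TPM is proportional to FPKM within a library, so these shifts follow the coverage per FPKM of each gene. Why that ratio differs between genes was not tested. Without replicate 2, NLRC5 against HLA-F fell to 0.018. Apart from HLA-C against HLA-B and the summed heavy chains against B2M, the ratios kept their direction with FPKM, a pseudocount of 0.1, coverage, added alternate-haplotype rows and each replicate left out. Scaling without the mitochondrially encoded genes multiplied every TPM by 1.25, which raised B2M to 971 TPM and HLA-F to 13.1 TPM.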

Other observations

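Other genes of the class I family and stress ligands that natural killer cells read were not among the 9 genes. MICA and MICB, ligands of the receptor NKG2D, were at 32.6 ± 1.31 and 24.2 ± 1.02 TPM (SD, n = 3). By TPM, MICA was above the TAP genes. By coverage it was below them, at 33.5, 34.4 and 28.5 against 154, 144 and 130 for TAP2 in replicates 1, 2 and 3. The other ligands were lower by TPM, with ULBP3 at 7.40 ± 0.335, RAET1L at 4.44 ± 0.428 and RAET1E at 2.98 ± 0.342 TPM. By coverage, ULBP3 was above MICA and MICB in every library, at 48.4, 43.3 and 40.8. ULBP1 and ULBP2 were below 1 TPM in every library. HFE, which regulates iron uptake, was at 7.21 ± 0.217 TPM, MR1, which presents vitamin metabolites, was at 4.33 ± 0.278 TPM (SD, n = 3), and CD1D was listed at 0. The row of HLA-G was listed at 0 in replicate 1 and at 0.990 and 1.12 TPM in replicates 2 and 3.

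The class I pseudogene HLA-H had 13.8, 14.7 and 18.0 TPM in replicates 1, 2 and 3, above HLA-F in every library. HLA-J was at 2.05 ± 0.0692 TPM (SD, n = 3), HLA-L was at 0.0727 ± 0.0137 TPM, and HLA-V was listed at 0, 0.431 and 0.381 TPM. Reads that such copies share with expressed heavy chain genes could have been assigned to either, and their part in these values was not tested.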
